A study of Mus musculus with 9 samples.

Results

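The genes described here mark the epithelium of the choroid plexus, and 30 were listed, of which 27 had a probe set that names that gene alone, among 18820 genes measured in mouse hippocampus. The list was drawn up with earlier results of these arrays known, and its members were chosen by their known role together with measured values, namely the spread of these genes among the control arrays and their difference between operated and control mice. Values for those contrasts are therefore given as a description, with no test. Enpp2 and Lmx1a were not in the probe table used, and the probe set of Col9a3 also names Tcfl5, so no level is given for these members. Each of the 27 measured members had 1 probe set of its own.

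The study took hippocampi from C57BL/6 mice aged 12 to 14 weeks and hybridised total RNA to Affymetrix mouse gene arrays, 9 arrays in 3 groups of 3 biological replicates. These were control mice, then mice with a surgical fracture of the tibia (surgery), and mice given Maresin 1, a lipid mediator made from docosahexaenoic acid, ahead of that same operation (Maresin 1 with surgery). Tissue was collected 72 h after surgery. The labels do not say whether control mice received anaesthesia, a sham operation or a vehicle, and they give no dose of Maresin 1, no sex and no account of the dissection. The series title asks whether Maresin 1 lowers neuroinflammation in perioperative neurocognitive disorders.

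The choroid plexus is a frond of epithelium over leaky capillaries that hangs in the brain ventricles and lies against the hippocampus along the lateral ventricle. Its cells pump ions and water into the ventricle to make cerebrospinal fluid, secrete carrier proteins into that fluid, and close the blood off from it with tight junctions. The transcription factors Otx2, Lmx1a and Msx1 act in the dorsal midline from which the tissue forms, and Otx2 stays on in the adult epithelium.

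Control replicates 2 and 3 carried every measured member above the level seen in control replicate 1 and in all 6 operated arrays, so the control arrays are shown singly throughout. Without normalization Wfdc2 and Stra6 were exceptions. Levels are log2 of the quantile-normalized signal plus 16, and a difference between levels is a log2 difference. As a guide to background, 95% of 990 olfactory receptor genes, mostly silent outside the nose, had a mean at or under 5.86. In control replicate 1, 14 members lay above it, in control replicates 2 and 3 all 27 did, and in the operated arrays 16 to 19 did. Of all 18820 genes, 13192, 13316 and 13627 lay above it in control replicates 1, 2 and 3, and 13263 to 13536 in the operated arrays. The 7 members that passed it in control replicates 2 and 3 alone were Slc4a5, Aqp1, Steap1, Cldn2, Col8a2, Tmem72 and Prr32. For the 13 members at or under it in control replicate 1 a difference from that array depends on the added constant, and no fold is given.

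Promoter sequence was looked up because these genes moved together between the control arrays and 3 members are transcription factors. Spread among the control arrays was part of how the members were chosen. Whether they share control of transcription was not tested. RefSeq promoters (build GRCm38.p6) were found for 23 of the 30 members, 31 promoters in all. The 250 bases before each gene start are shown, 5′ to 3′ on the gene's strand, for the 3 members with the widest control range that have such an entry, Slc4a5 (chr6:83237125-83237374, plus strand), Kcnj13 (chr1:87394730-87394979, minus strand) and F5 (chr1:164151585-164151834, plus strand). A promoter of Otx2 (chr14:48665110-48665359, minus strand) is added because it was the only member promoter with the OTX core TAATCC. Capitals mark that core, the homeodomain palindrome TAATTA and the TATA box TATAAA, each searched on both strands.
Slc4a5: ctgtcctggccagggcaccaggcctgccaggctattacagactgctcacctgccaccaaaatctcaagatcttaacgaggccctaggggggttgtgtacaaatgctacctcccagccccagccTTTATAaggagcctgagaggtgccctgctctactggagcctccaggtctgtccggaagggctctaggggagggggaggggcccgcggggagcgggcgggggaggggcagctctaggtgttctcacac
Kcnj13: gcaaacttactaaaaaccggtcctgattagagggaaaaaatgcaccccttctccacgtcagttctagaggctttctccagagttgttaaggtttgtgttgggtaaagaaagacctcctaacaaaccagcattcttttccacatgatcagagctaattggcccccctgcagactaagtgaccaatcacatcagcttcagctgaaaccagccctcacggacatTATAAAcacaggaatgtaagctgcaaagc
F5: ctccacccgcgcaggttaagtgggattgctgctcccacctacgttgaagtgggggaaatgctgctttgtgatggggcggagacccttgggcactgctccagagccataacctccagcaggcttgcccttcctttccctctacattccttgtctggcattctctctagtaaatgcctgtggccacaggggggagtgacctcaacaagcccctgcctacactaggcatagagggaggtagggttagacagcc
Otx2: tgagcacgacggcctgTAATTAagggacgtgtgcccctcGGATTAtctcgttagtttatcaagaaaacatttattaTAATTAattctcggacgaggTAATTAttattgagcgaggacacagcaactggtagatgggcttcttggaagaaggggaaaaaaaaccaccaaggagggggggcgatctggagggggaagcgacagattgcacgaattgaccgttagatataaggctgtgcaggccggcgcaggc
The TATA letters of Kcnj13 begin at -29 from the gene start and those of Slc4a5, on the other strand, at -127, while F5 has none of the 3 motifs. In Otx2 the OTX core, read on the other strand, begins at -211, between palindromes at -234 and -174. Over all members, 1 of 31 promoters held the OTX core (3.23%, against 6.25% of 32851 promoters), 3 the palindrome (9.68% against 4.84%) and 4 the TATA box (12.9% against 12.4%). These are matches of letters in this window only, and several promoters can belong to 1 gene.

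Across the control arrays the members spread over a wide range. The highest minus the lowest control level was at least 1 for 24 of the 27 members, and for 0.765% of all 18820 genes. The median control range was 3.20 for members (lowest 0.62, highest 6.47) and 0.20 for all genes. The 8 widest control ranges of all genes belonged to Slc4a5, Kcnj13, Ttr, F5, Clic6, Folr1, Col8a1 and Cldn2. All 27 members were higher in control replicate 2 than in control replicate 1, by a median of 2.76, where 50.2% of all genes were, and 22 of them by at least 1, where 0.351% of all genes were. All 27 were also higher in control replicate 3 than in control replicate 1, by a median of 3.20, where 59.7% of all genes were, and 24 of them by at least 1, where 0.494% of all genes were. The order held with other scalings, except that without normalization Stra6 was lower in control replicate 2 than in control replicate 1, by a difference of -0.16. Within surgery arrays the median range of the members was 0.22 and within Maresin 1 arrays 0.30, against 0.15 and 0.18 for all genes.

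**Figure D1:**
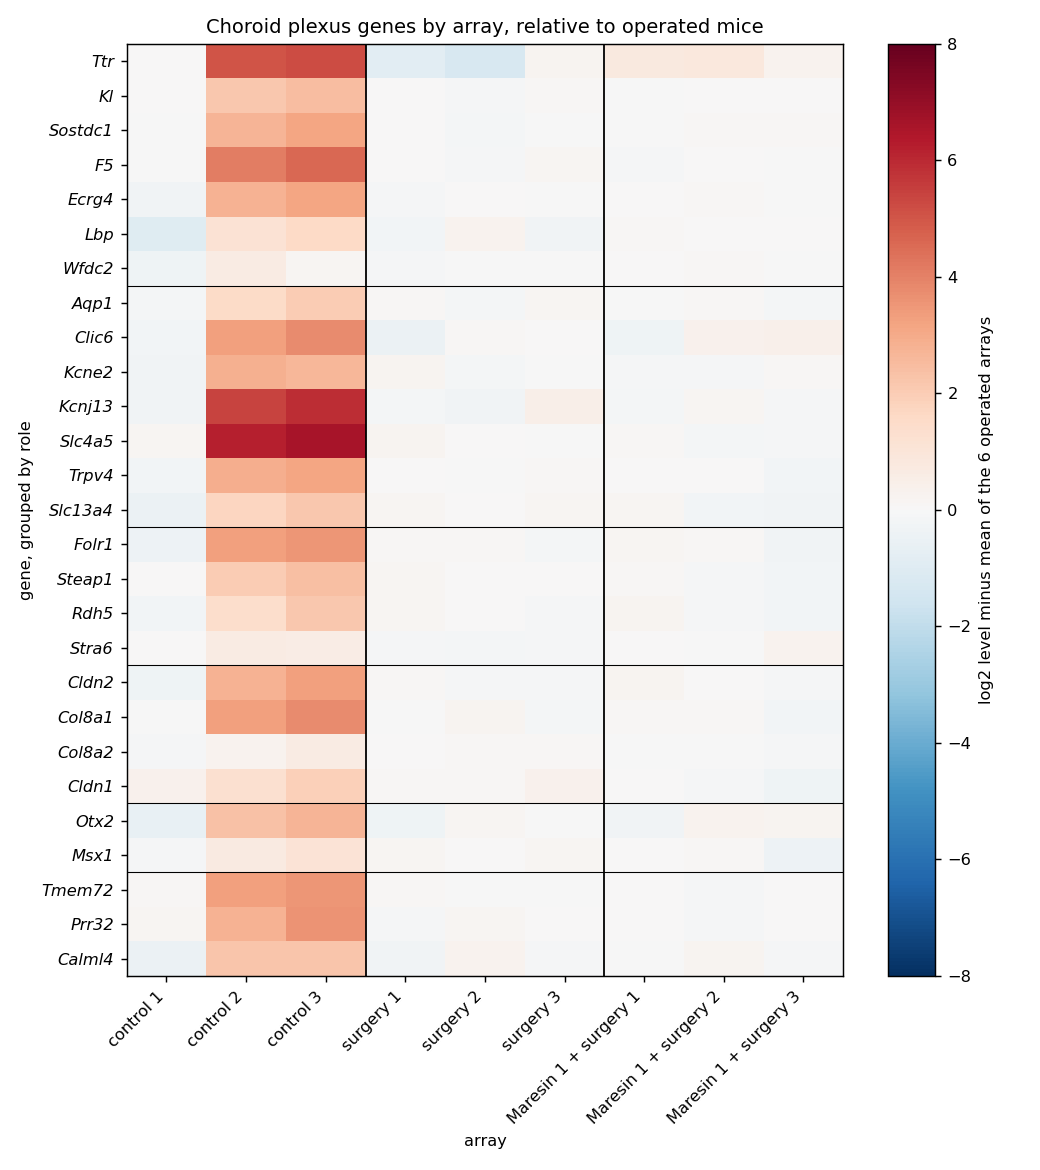
Levels of the 27 measured members (rows, grouped as secreted proteins, channels and carriers, uptake and retinoid genes, junction and matrix genes, transcription factors and other genes) in each of the 9 arrays (columns), as the log2 level minus the gene's mean over the 6 operated arrays. Control replicates 2 and 3 stand above the operated mean for every member, by a median of 2.72 and 2.74. Some stand only a little above it, as Wfdc2 in control replicate 3 (6.60 against 6.42) and Col8a2 in control replicate 2 (5.90 against 5.64). Control replicate 1 stands at a median of -0.14 and the operated arrays between -0.09 and 0.05.

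Among the secreted proteins Ttr and F5 had the widest gaps between control arrays. Ttr encodes transthyretin, the carrier of thyroid hormone and retinol-binding protein that choroid plexus secretes in bulk. Its level was 7.55, 12.54 and 12.71 in control replicates 1, 2 and 3, then 6.66, 6.19 and 7.70 after surgery and 8.30, 8.34 and 7.77 in mice given Maresin 1. Control replicate 1 lay within the span of the operated arrays, and the level of control replicate 3 was 35.6-fold that of control replicate 1. F5, coagulation factor V, stood at 5.92, 10.06 and 10.57 in the controls, at 6.00, 5.92 and 6.12 after surgery and at 5.87, 6.03 and 5.95 with Maresin 1. Its 7 lower arrays lay close together, and control replicate 2 stood 4.14 above control replicate 1.

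Sostdc1, which blocks bone morphogenetic protein and Wnt signals, was at 7.91, 10.66 and 11.11 in the controls, at 7.96, 7.82 and 7.94 after surgery and at 7.92, 8.01 and 8.02 with Maresin 1. Ecrg4, the precursor of the secreted peptide augurin, was at 5.87, 8.96 and 9.29 in the controls, at 6.09, 6.23 and 6.15 after surgery and at 6.18, 6.26 and 6.11 with Maresin 1. Kl, the ageing-linked membrane protein klotho that is also shed, was at 8.08, 10.22 and 10.53, and between 7.93 and 8.12 in operated mice. For these genes the operated arrays and control replicate 1 sat close together, with Ecrg4 a little higher in each operated array than in control replicate 1. Wfdc2, a whey acidic protein type inhibitor, had a narrow control range, with 6.08, 7.06 and 6.60, followed by 6.35, 6.40 and 6.41 after surgery and 6.45, 6.54 and 6.37 with Maresin 1. It was 1 of 4 members with a higher level in control replicate 2 than in control replicate 3, while 23 members were higher in control replicate 3, as were 62.6% of all genes.

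Lbp, the lipopolysaccharide-binding protein of the acute phase response, is named here after its values were seen. It was at 6.85, 8.97 and 9.37 in the controls, at 7.57, 8.10 and 7.53 after surgery and at 7.89, 7.85 and 7.80 with Maresin 1. The operated arrays lay between the control arrays, above control replicate 1 by 0.69 to 1.25 and below control replicate 2 by at least 0.87. Against control replicate 1 alone its mean was higher by 0.89 after surgery and by 1.00 with Maresin 1, the largest such differences of any member. In all, 9 members had every operated array above control replicate 1 (33.3%, where 21.1% of all genes did) and 3 had every one below it (11.1%, where 13.2% did). Without normalization every operated array lay above control replicate 1 for Cldn2 alone, and the lowest operated array of Lbp stood at -0.08 against control replicate 1, which had the highest median signal as deposited.

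Channels and carriers of fluid secretion included the 2 widest ranges of all genes. Slc4a5, an electrogenic sodium bicarbonate cotransporter, stood at 5.24, 11.33 and 11.70 in the controls, at 5.29, 5.14 and 5.04 after surgery and at 5.18, 4.92 and 4.99 with Maresin 1. The 7 low arrays all lay under the olfactory receptor level. Kcnj13, the inward rectifier potassium channel Kir7.1 of the apical membrane, was at 5.47, 11.12 and 11.62 in the controls, at 5.60, 5.46 and 6.22 after surgery and at 5.61, 5.90 and 5.63 with Maresin 1. Control replicate 3 stood above control replicate 1 by a log2 difference of 6.15 for Kcnj13 and 6.47 for Slc4a5, with control replicate 1 under the olfactory receptor level for both, and surgery replicate 3 had the highest operated level of Kcnj13.

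Clic6, a chloride intracellular channel protein, was at 5.47, 8.96 and 9.49 in the controls, at 5.22, 5.77 and 5.71 after surgery and at 5.34, 6.04 and 6.09 with Maresin 1. Kcne2, the accessory subunit of potassium channels, was at 5.61, 8.74 and 8.54 in the controls, at 6.10, 5.75 and 5.87 after surgery and at 5.78, 5.81 and 5.96 with Maresin 1. Trpv4, a cation channel opened by cell swelling, was at 6.73, 9.84 and 10.10 in the controls, at 7.00, 6.94 and 7.03 after surgery and at 7.00, 6.99 and 6.70 with Maresin 1. Control replicate 2 exceeded the highest operated array by 2.86 for Clic6, 2.64 for Kcne2 and 2.80 for Trpv4, and Kcne2 was lower in control replicate 3 than in control replicate 2. Slc13a4, a sodium sulphate cotransporter, was at 6.50, 8.65 and 9.07 in the controls, at 7.12, 6.97 and 7.07 after surgery and at 7.11, 6.70 and 6.68 with Maresin 1. Aqp1, the water channel of the apical membrane, was at 5.33, 6.99 and 7.51, with operated arrays from 5.30 to 5.60, under the olfactory receptor level.

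**Figure D2:**
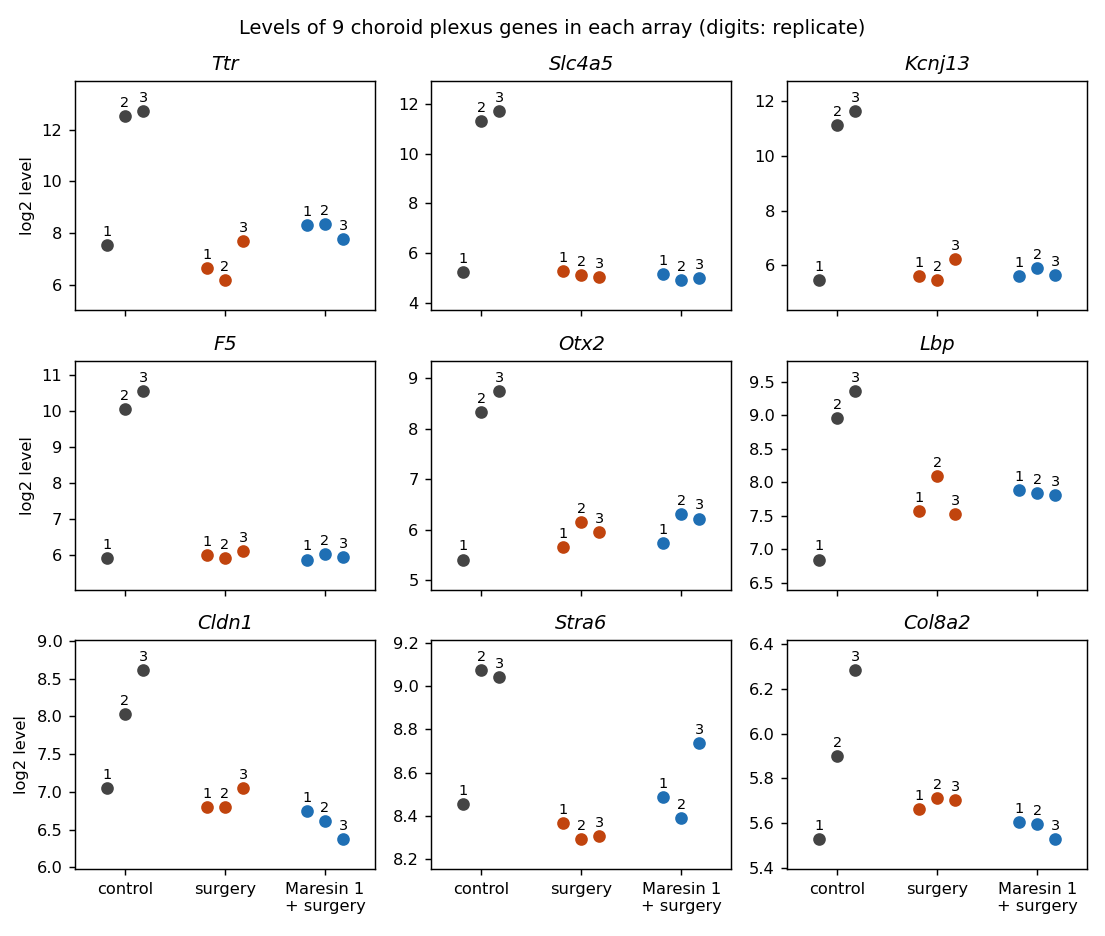
Log2 levels (y axes, each with its own range) of 9 members in the 3 arrays of each group (x axes), 1 point for each array with its replicate number. Ttr, Slc4a5, Kcnj13, F5 and Otx2 stand far higher in control replicates 2 and 3 than elsewhere, Lbp has its lowest level in control replicate 1, and Stra6 and Col8a2 have narrow control ranges of 0.62 and 0.75.

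Among genes of vitamin and metal uptake, Folr1, the folate receptor that carries folate into cerebrospinal fluid, was at 5.75, 9.40 and 9.65 in the controls, at 6.24, 6.25 and 6.00 after surgery and at 6.30, 6.22 and 5.88 with Maresin 1. Steap1, a metalloreductase family member, was at 5.44, 7.44 and 7.82, at 5.56, 5.44 and 5.48, and at 5.53, 5.30 and 5.23 in the same order. Rdh5, a retinol dehydrogenase, was at 6.18, 7.76 and 8.54 in the controls and between 6.13 and 6.59 in operated mice. Stra6, the membrane receptor for retinol-binding protein, had the narrowest control range of the members. It was at 8.45, 9.07 and 9.04 in the controls, at 8.37, 8.29 and 8.31 after surgery and at 8.49, 8.39 and 8.73 with Maresin 1, so that Maresin 1 replicate 3 came within 0.34 of control replicate 2.

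Tight junction and matrix genes differed in how far they moved. Cldn2, a pore-forming claudin of leaky epithelia, was at 4.71, 7.85 and 8.32 in the controls, at 5.12, 4.97 and 4.97 after surgery and at 5.29, 5.06 and 4.94 with Maresin 1. Cldn1, a sealing claudin, was at 7.05, 8.03 and 8.61 in the controls, at 6.79, 6.80 and 7.05 after surgery and at 6.74, 6.62 and 6.37 with Maresin 1. Control replicate 3 exceeded control replicate 1 by a log2 difference of 3.61 for Cldn2, whose lower arrays were under the olfactory receptor level, and of 1.56 for Cldn1. Col8a1, a short-chain collagen, was at 6.37, 9.71 and 10.17 in the controls, at 6.39, 6.65 and 6.22 after surgery and at 6.52, 6.50 and 6.18 with Maresin 1. Its partner chain Col8a2 was at 5.53, 5.90 and 6.28 in the controls, at 5.67, 5.71 and 5.70 after surgery and at 5.61, 5.60 and 5.53 with Maresin 1, close to background in every array.

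Of the transcription factors, Otx2 was at 5.41, 8.34 and 8.75 in the controls, at 5.66, 6.16 and 5.96 after surgery and at 5.74, 6.31 and 6.23 with Maresin 1. Every operated array lay above control replicate 1 for Otx2, by 0.24 to 0.90. Msx1 had a smaller range, with 6.29, 7.09 and 7.43 in the controls, 6.50, 6.38 and 6.51 after surgery and 6.41, 6.44 and 5.96 with Maresin 1. The remaining members were high in the same control arrays. The membrane protein gene Tmem72 was at 5.43, 8.61 and 8.84 in the controls, at 5.43, 5.28 and 5.28 after surgery and at 5.35, 5.27 and 5.39 with Maresin 1. Prr32 was at 5.13, 7.74 and 8.53 in the controls, at 4.86, 5.08 and 4.99 after surgery and at 4.97, 4.85 and 4.99 with Maresin 1. Both stayed under the olfactory receptor level outside control replicates 2 and 3. Calml4, a calmodulin-like protein of brush border complexes, was at 5.49, 8.18 and 8.17 in the controls, at 5.70, 6.24 and 5.88 after surgery and at 5.95, 6.18 and 5.88 with Maresin 1.

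The control arrays decide what a comparison of operated with control mice gives. Surgery minus control group means had a median of -1.73 over the members, against 0.02 over all genes, and Maresin 1 with surgery minus control had a median of -1.78, against -0.003 over all genes. These comparisons share the control arrays. Against control replicate 1 alone the medians were 0.16 for surgery and 0.16 for Maresin 1 with surgery, against 0.03 and 0.02 over all genes. Against control replicate 2 they were -2.76 and -2.68, and against control replicate 3 they were -2.83 and -2.69. Without normalization every operated array lay above control replicate 1 for Cldn2 alone. With control replicate 1 left out the group medians were -2.74 and -2.79, and with control replicate 2 or 3 left out they ran from -1.28 to -1.19. Ttr had a control mean of 10.94 ± 2.93 (SD, n = 3), a surgery mean of 6.85 ± 0.77 and a Maresin 1 mean of 8.14 ± 0.32. With limma over all 9 arrays, 0 of 27 members passed an adjusted p of 0.05 for surgery against control, where 0% of all genes did, and 0 of 27 for Maresin 1 with surgery against control, where 0.085% did. The members were chosen with these contrasts known, and nothing is read from the counts. In bulk tissue fewer cells of a type and less RNA per cell cannot be told apart.

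The contrast that does not use the control arrays is Maresin 1 with surgery against surgery, fitted with limma on the 6 operated arrays alone. Ttr was the member that differed most, at 8.14 ± 0.32 (SD, n = 3) with Maresin 1 and 6.85 ± 0.77 after surgery. This is 2.45-fold (log2 1.29, SE 0.29, 95% interval 0.67 to 1.92, limma adjusted p = 0.463), so it did not pass. The arrays of the groups did not overlap, since the highest surgery array was at 7.70 and the lowest Maresin 1 array at 7.77. An exact permutation test of Ttr alone, two-sided, gave p = 0.1, the smallest that 3 arrays against 3 allow. Any gene without overlap between the groups gets this value, so the test adds nothing to the lack of overlap. The call turned on the processing. With each array scaled to one median Ttr passed (limma adjusted p = 1.83e-10), as did 24 of 18820 genes in all. It was the 1 gene that passed without normalization (limma adjusted p = 0.00696). Without surgery replicate 3 it was again the 1 gene that passed (log2 1.71, limma adjusted p = 0.015). The spread of Ttr itself gave an SE of 0.48, which limma drew down to 0.29 towards genes of like level.

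Cldn1 was lower with Maresin 1 in all 3 arrays than in any surgery array (log2 -0.30, SE 0.11, limma adjusted p = 0.648). Stra6 was higher without overlap (log2 0.21, SE 0.09, adjusted p = 0.65), and Col8a2 was lower without overlap (log2 -0.12, SE 0.09, adjusted p = 0.778) at levels under the olfactory receptor level. The levels of Slc13a4, Msx1 and Steap1 overlapped between groups, with log2 differences of -0.22, -0.20 and -0.14. None of the 27 members passed an adjusted p of 0.05 in this limma fit, where 0% of all genes did. At an unadjusted p under 0.05 there were 3 members, Ttr, Cldn1 and Stra6, which is 11.1%, where 7.42% of all genes stood. Groups did not overlap for 4 members, 14.8%, where 13% of all genes did. The median difference was -0.03 over the members and -0.02 over all genes, with 12 members higher and 15 lower. For the 26 members other than Ttr the differences ran from -0.30 to 0.26, and their 95% intervals lay between -0.54 and 0.68. Whether Ttr differed from the other members in this contrast was not tested.

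**Figure D3:**
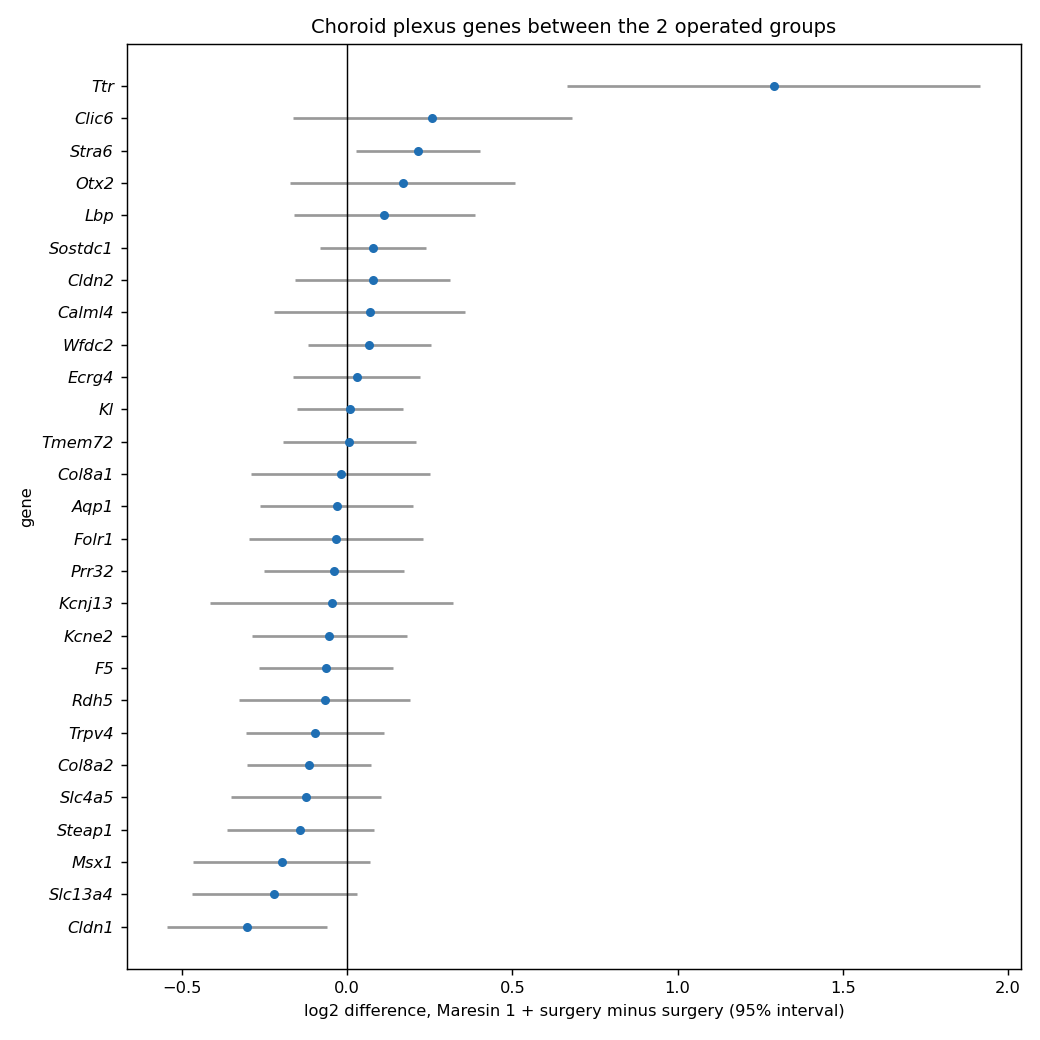
Log2 difference between Maresin 1 with surgery and surgery for the 27 members (rows, in order of the difference), with unadjusted 95% intervals from limma on 6 arrays. Ttr stands at 1.29 with an interval of 0.67 to 1.92, and the other 26 members lie between -0.30 and 0.26.

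Other genes of the choroid plexus were taken from a separate list of 52, of which 47 were measured. It too was drawn up with earlier results of these data known, so its control values are a description, with no test. Many of these are also active in other brain cells. In control replicate 2, 42 were higher than in control replicate 1, and in control replicate 3, 43 were, by medians of 0.67 and 0.72. A control range of at least 1 was found for 21 of them, 44.7%, against 0.765% of all genes. The widest were those of the RNA-binding protein gene Rbm47 (5.07, 7.13 and 7.68 in control replicates 1, 2 and 3), the angiotensin-converting enzyme gene Ace (7.39, 9.14 and 9.96) and the simple-epithelium keratin gene Krt18 (5.73, 7.43 and 8.06). Each had operated arrays near control replicate 1, from 4.98 to 5.15 for Rbm47, from 7.10 to 7.58 for Ace and from 5.84 to 6.09 for Krt18. The growth factor gene Igf2, made by choroid plexus and meninges, was at 8.88, 10.60 and 10.79. The narrowest control ranges of the list, named after their values were seen, were 0.02 for the chaperone gene Clu, 0.05 for the protease inhibitor gene Cst3 and 0.11 for the carbonic anhydrase gene Car2. Between Maresin 1 with surgery and surgery, 19 of the 47 were higher (40.4%, where 41.7% of all genes were), with a median of -0.05. In limma 0 passed an adjusted p of 0.05, where 0% of all genes did, and 6 had an unadjusted p under 0.05 (12.8%, where 7.42% of all genes did).

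Markers of neighbouring cells, from lists also drawn up with earlier results of these data known, were set beside the members. All 16 measured genes of ependyma and motile cilia, which line the ventricle, were higher in control replicates 2 and 3 than in control replicate 1, by medians of 0.60 and 0.73. Cfap126 had the widest range, with 6.46, 7.56 and 7.78 in the controls, then Rsph4a with 6.99, 7.81 and 8.20 and Dnali1 with 6.08, 6.92 and 7.26. For Rsph4a the operated arrays reached 7.91, above control replicate 2. The list as a whole stood at -0.38, 0.17 and 0.44 in the control arrays relative to the operated mean and between -0.16 and 0.17 in the operated arrays, while the members stood at -0.14, 2.72 and 2.74 in the controls. A control range of at least 1 was found for 4 of the 16. The part of ependyma in the members' values was not tested.

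Meningeal and vascular fibroblast genes were higher in control replicate 2 than in control replicate 1 for 12 of 16 and in control replicate 3 for 14 of 16, by medians of 0.20 and 0.21. The proteoglycan gene Fmod had the widest range, 1.49, then Ogn with 0.82 and the carrier gene Slc6a13 with 0.81. Outside the lists of choroid plexus, ependyma and fibroblast genes no listed gene had a control range of at least 1. Plvap, the diaphragm protein of the leaky capillaries that feed choroid plexus, was at 6.95, 7.06 and 7.16 in the controls and between 6.80 and 7.12 in operated mice, and the 4 genes of that list had medians of 0.00 and 0.15 against control replicate 1. In the leaky capillary list Ehd4, Plvap and Plpp3 had control ranges of 0.43, 0.21 and 0.16. In the endothelium list Adgrl4, Pecam1 and Tek had control ranges of 0.41, 0.27 and 0.26. That list stood at -0.31, -0.30 and -0.42 in the control arrays relative to the operated mean, below each operated array (-0.23 to 0.16), and control replicate 1 was as low as control replicate 2. Its part in the members' differences from control was not tested. In the border macrophage list F13a1, Lyve1 and Cbr2 had 0.44, 0.41 and 0.38. The thalamus and habenula list had 0.53 for Tac2, 0.46 for Pou4f1 and 0.44 for Ramp3, each lower in control replicate 2 than in control replicate 1. Averaged over the arrays, all 13 measured hippocampal neuron genes exceeded the background guide, and the list stood between -0.07 and 0.06 in all 9 arrays. Its widest control ranges were 0.73 for Lct, 0.69 for C1ql2 and 0.43 for Dsp, each higher in control replicates 2 and 3 than in control replicate 1. Of the 13 genes, 9 were higher in control replicate 2 than in control replicate 1 and 7 were higher in control replicate 3.

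The same lists were also set beside Ttr for the contrast between the operated groups. With Maresin 1, 15 of 16 ependyma and cilia genes were higher than after surgery (median 0.08), 0 of 10 border macrophage genes were (median -0.20) and 4 of 16 fibroblast genes were (median -0.18), where 41.7% of all genes were higher. Genes of a list share the same arrays and are not replicates. Relative to the operated mean, the surgery arrays of the ependyma and cilia list stood at -0.162, 0.167 and -0.129. Its Maresin 1 arrays stood at -0.025, 0.143 and 0.049, so the groups overlapped. The fibroblast list stood at 0.135, 0.118 and 0.017, then at 0.164, -0.21 and -0.218, which also overlapped. The border macrophage list stood at 0.058, 0.147 and 0.069, then at -0.022, -0.158 and -0.205, without overlap. None of the genes of these lists passed an adjusted p of 0.05 in limma, where 0% of all genes did. At an unadjusted p under 0.05 stood 2, 4 and 5 of them (12.5%, 40% and 31.2%), where 7.42% of all genes did. Averaged over the arrays, only 4 of the 10 border macrophage genes exceeded the background guide, so most of that list lay near background. Of the ependyma and cilia genes 15 of 16 exceeded it, and of the fibroblast genes 16 of 16. Higher with Maresin 1 were also 8 of 13 hippocampal neuron genes (median 0.09) and 4 of 11 thalamus and habenula genes (median -0.08). So were 5 of 11 endothelium genes (median -0.003) and 1 of 4 leaky capillary genes (median -0.08). In these 4 lists 4, 3, 1 and 0 genes had an unadjusted p under 0.05, and 0 passed the adjustment. The part of these lists in the difference of Ttr was not tested.

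**Figure D4:**
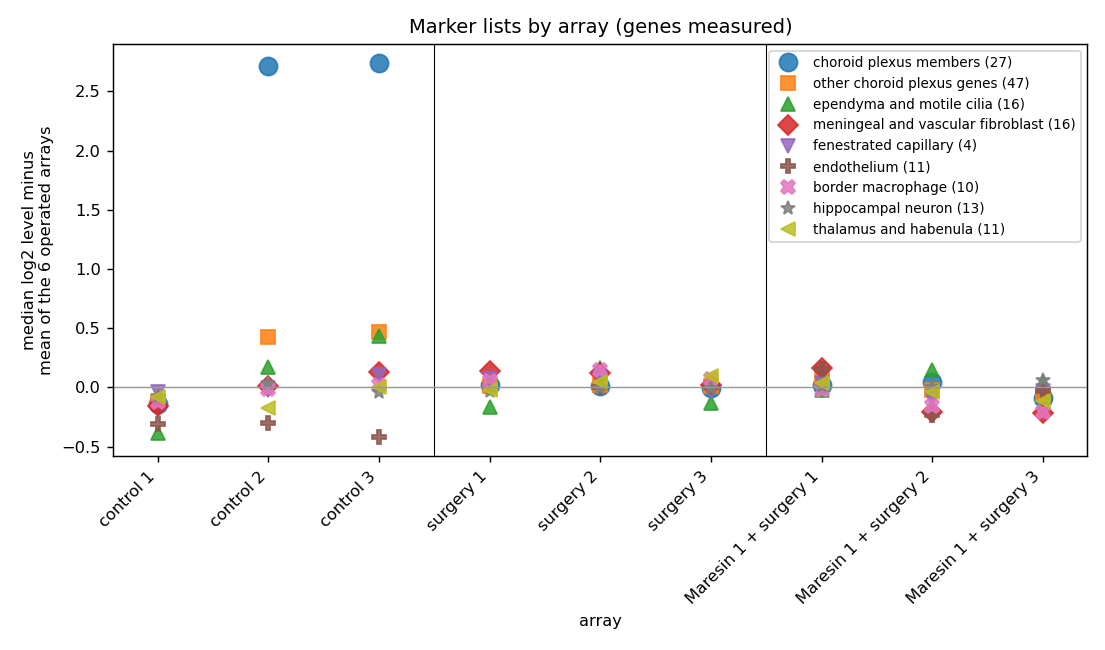
Median over the genes of each marker list of the log2 level minus the gene's mean over the 6 operated arrays (y axis), for the 9 arrays (x axis); the legend gives the number of genes measured. The members stand at 2.72 and 2.74 in control replicates 2 and 3, other choroid plexus genes at 0.43 and 0.47, and hippocampal neuron genes between -0.07 and 0.06 in every array.

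Of all 144 genes with a control range of at least 1, 24 were members, 21 came from the list of other choroid plexus genes and 94 were in no list used here. Above the olfactory receptor level the 10 non-members with the widest control range were Erdr1, Abca4, Pla2g5, Drc7, Ace, Krt18, Sulf1, Igfbp2, Slc2a12 and Sntn. The lipid transporter gene Abca4 (5.43, 8.02 and 8.33 in control replicates 1, 2 and 3), the secreted phospholipase gene Pla2g5 (5.85, 7.85 and 8.51), the cilia gene Drc7 (6.15, 8.60 and 8.76), the sulphatase gene Sulf1 (7.03, 8.96 and 9.34), the growth factor-binding protein gene Igfbp2 (7.40, 9.29 and 9.71) and the sugar transporter gene Slc2a12 (6.56, 8.26 and 8.77) were high in the same control arrays as the members. Erdr1 ran another way, at 10.59, 10.44 and 7.06, and so did the cilia tip gene Sntn, at 7.77, 8.20 and 6.02 with a range of 2.73 within the Maresin 1 arrays.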

How the data were processed

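The authors deposited 1 table of linear intensity per probe set, 35556 probe sets by 9 arrays, and the submitters' processing notes name Affymetrix Expression Console, with its algorithm not given in the sources used here. Array medians ran from 54.1 to 100, with no visible normalization between arrays. Signals were quantile normalized, 16 was added and log2 taken. The number of arrays limits the precision. No scan date or batch was named in the labels.

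Of the probe sets 21218 name 1 gene, 1881 several and 12457 none in the table used; the highest-mean probe set stood for each gene. Maresin 1 with surgery was compared with surgery by limma 3.58.1 (R 4.3.3) on 6 arrays, with a mean-variance trend and Benjamini-Hochberg adjustment over 18820 genes. A fit over all 9 arrays gave the counts against control. Errors are SD of groups and SE of differences. The fit was tested on simulated data with noise drawn separately for each gene and array. That simulation had no shifts shared by an array, so it cannot bear on how the call of Ttr depends on the scaling.

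Members and lists were chosen with earlier results of these data known. Values in every array are given for the 16 members with the widest control range, the 4 with the narrowest and the 6 with the smallest p. Others are named as such. For 10 non-members control values are given, and for the 3 genes of each list with the widest control ranges, control values or ranges. Alternatives were other scalings, pseudocounts 1 and 64, no dim genes, mean of probe sets, all 9 arrays, a replicate block and leaving out each array.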

Additional observations from a re-analysis of the deposited data

How the results depend on the processing

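Every measured member kept its higher level in control replicates 2 and 3 than in all operated arrays with arrays scaled to one median. Without normalization 25 of 27 did, Wfdc2 (-0.06) and Stra6 (-0.03) being the exceptions. Pseudocounts of 1 and 64 cannot change the order of arrays within a gene, so they do not test it. The number of members with a control range of at least 1 stayed between 21 and 26 over the other settings and was 0 to 24 when 1 control array was left out, 0 being the count without control replicate 1. The number of members called between Maresin 1 with surgery and surgery was 1 in place of 0 without normalization, with arrays scaled to one median, and without surgery replicate 3. The gene was Ttr each time, and the count was 0 to 1 over all arrays left out. Of all 18820 genes 1, 24 and 1 were called in those settings, against 0 as reported. Without Maresin 1 replicate 1 or 2, 2 and 1 genes were called, with 0 members among them. With scaling to one median limma's prior had 130 degrees of freedom, against 7.97 as reported, and the SE of Ttr fell to 0.144. Without normalization the prior was infinite, so the spread of Ttr itself had no weight in its SE of 0.263. The median difference of members for that contrast was 0.059 without normalization, against -0.032. With a replicate block 0 members were called and Ttr had an adjusted p of 0.491. Same-numbered arrays of these groups had correlations of 0.055, -0.019 and -0.114, so the numbers were not taken to pair them. Ttr ranged from 0.962 to 1.715 over 14 alternatives (adjusted p 1.83e-10 to 0.89). Medians against control kept their sign, from -2.738 to -1.26 for surgery and -2.792 to -1.186 for Maresin 1 with surgery. Each of these settings kept control replicate 2 or 3 in the control group. Against control replicate 1 alone the medians were above 0 with quantile normalization, at 0.161 and 0.155, against 0.034 and 0.016 over all genes. The median of control replicate 3 minus replicate 1 was 3.40 with a pseudocount of 1 and 2.31 with 64. Weak signal limits members near background.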
